A study of Mus musculus with 79 samples.

Results

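The genes described here are 42 genes of the glutamatergic synapse: 22 that act before the synaptic cleft (synaptic vesicle proteins, vesicular glutamate transporters, the fusion machinery, calcium sensors and active zone proteins) and 20 that act behind it (ionotropic and metabotropic glutamate receptors, their scaffolds and calcium-dependent signalling proteins). They were chosen by name, with earlier results of these data known. In a tissue, a gene's probe counted as measured where 8 or more arrays of that tissue had a detection p below 0.05 for it. Of the 42 genes, 34 had a probe named for them, 51 probes in all among 17800 named probes for 12739 genes. No probe was named for Snap25, Syt2, Rab3c, Grin1, Grm2, Grm3, Grm5 or Shank1, which were therefore not analysed here. In each tissue 18 presynaptic genes passed; Bsn, a scaffold of the active zone, was detected on 1 hippocampal array and on 0 cortical arrays. Postsynaptic genes passed for 12 genes in hippocampus and 13 in frontal cortex. The NMDA receptor subunits failed in both tissues, Grin2a with 3 of 39 and 1 of 40 arrays detected and Grin2b with 6 of 39 and 0 of 40. Gria4, a subunit of AMPA receptors, was detected on 3 of 39 hippocampal arrays and on 20 of 40 cortical arrays and passed in cortex alone. The filter took no account of group, and 1 probe stood for each gene, the one with the highest mean over all arrays.

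At a glutamatergic terminal, vesicular transporters load glutamate into vesicles, SNARE proteins on the vesicle and the plasma membrane pull the membranes together, and synaptotagmins trigger fusion when calcium enters. The released glutamate opens AMPA, NMDA and kainate receptors, which scaffold proteins hold in the postsynaptic density beside calcium/calmodulin-dependent kinase. In hippocampus and cortex most excitatory terminals carry Slc17a7, whereas Slc17a6 is the transporter of thalamic and many other subcortical projections, and loss of synapses is a known feature of Alzheimer's disease.

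The arrays came from female mice of the APP/PS1 line of Jucker's group, in which the Thy1 promoter, active in neurons, drives the mutant human transgenes, and from wild-type littermates. An antisense oligonucleotide (ASO) against Cd33, a control ASO without a target, or PBS was infused for 14 days from 18 weeks of age through a cannula into the right lateral ventricle, at 75 µg per day in 6 µL per day; wild-type mice received PBS, so every mouse carried a pump. Left hippocampus and left frontal cortex were taken at about 20.5 weeks, 17 days after surgery in most mice. In the CD33 ASO group 2 mice were taken after 13 days and 1 after 16 days, and in the APP/PS1 PBS group 1 after 14 days. Hippocampus gave 11 wild-type PBS, 8 APP/PS1 PBS, 11 control ASO and 9 CD33 ASO arrays, and frontal cortex 11, 8, 11 and 10. In all, 40 mice supplied the 79 arrays, and both tissues were taken from 39.

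Between 13105 and 14446 of 25697 probes were detected on an array. Cd33, the target of the ASO, had a median level of 6.42 with the control ASO and 4.77 with the CD33 ASO in hippocampus, and of 6.88 and 5.71 in cortex, so the target followed the labels. Thy1, whose regulatory sequence the transgenes carry, was low on 7 arrays from 4 mice labelled APP/PS1. These arrays read 13.83 to 13.96 in hippocampus and 13.81 to 14.01 in cortex. Wild-type arrays reached 14.03 and 14.14 there, and the other APP/PS1 arrays began at 14.51 and 14.54. The mice are called by their labels, and in each comparison the count of called genes among the 42 was also made without them. All were in the ASO groups, some with the control ASO and some with the CD33 ASO, and none in the PBS groups. Without them the hippocampal calls between the CD33 ASO and the control ASO fell from 527 to 221 of 14923 probes. Each tissue was hybridised on 5 slides of its own, so tissue and slide cannot be told apart, and the groups were spread unevenly over the slides. Over all probes tested, 27.8% differed between slides in hippocampus and 21.9% in cortex (adjusted p under 0.05, groups in the model); of the synaptic genes 7 of 30 did in hippocampus and 6 of 31 in cortex, Rab3a and Sv2b among both. Results are therefore given with and without the slide in the model.

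All levels are log2 values after background correction and quantile normalization (neqc), and triplets of levels are the lowest, the median and the highest array of a group. A gene is called where limma's p, Benjamini-Hochberg adjusted over all probes tested, is under 0.05. Levels belong to a probe and are not compared between genes. In bulk tissue, fewer cells of a type and less RNA per cell cannot be told apart.

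The upstream sequences of the 5 genes on which the results below turn most and for which RefSeq gave a promoter are shown so that the differences in level can be set beside the genes' own regulatory DNA (RefSeq promoters were found for 31 of the 42 genes). Each runs for the 250 bases before the annotated start of the gene, in build GRCm38.p6, 5′ to 3′ on the gene's strand, and capitals mark the GC box (searched as GGGCGG and on the other strand as CCGCCC). Stx1a encodes a SNARE of the plasma membrane, Camk2b a kinase subunit, Homer1 a postsynaptic scaffold, Slc17a6 a vesicular glutamate transporter and Rab3a a vesicle GTPase.
Stx1a, chr5:135023232-135023481, plus strand: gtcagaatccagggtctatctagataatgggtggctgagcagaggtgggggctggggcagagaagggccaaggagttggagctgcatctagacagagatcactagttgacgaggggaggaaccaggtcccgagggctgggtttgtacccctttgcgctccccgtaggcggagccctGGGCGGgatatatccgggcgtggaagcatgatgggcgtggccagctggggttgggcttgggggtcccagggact
Camk2b, chr11:6065749-6065998, minus strand: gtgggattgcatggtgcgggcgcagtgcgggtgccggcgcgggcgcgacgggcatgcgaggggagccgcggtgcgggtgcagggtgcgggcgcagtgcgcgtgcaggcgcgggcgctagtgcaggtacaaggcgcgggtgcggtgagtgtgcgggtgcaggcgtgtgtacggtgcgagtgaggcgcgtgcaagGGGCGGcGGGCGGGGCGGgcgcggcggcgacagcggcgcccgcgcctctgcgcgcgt
Homer1, chr13:93303507-93303756, plus strand: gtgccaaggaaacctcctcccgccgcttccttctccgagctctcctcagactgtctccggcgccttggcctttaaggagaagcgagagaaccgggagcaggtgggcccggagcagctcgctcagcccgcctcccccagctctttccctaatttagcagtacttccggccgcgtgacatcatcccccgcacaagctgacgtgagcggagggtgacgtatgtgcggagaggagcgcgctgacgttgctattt
Slc17a6, chr7:51621580-51621829, plus strand: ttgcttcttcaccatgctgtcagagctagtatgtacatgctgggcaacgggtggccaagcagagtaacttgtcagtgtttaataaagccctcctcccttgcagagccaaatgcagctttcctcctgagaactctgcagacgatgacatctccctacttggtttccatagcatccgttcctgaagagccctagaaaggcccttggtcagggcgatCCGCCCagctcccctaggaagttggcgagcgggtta
Rab3a, chr8:70754453-70754702, plus strand: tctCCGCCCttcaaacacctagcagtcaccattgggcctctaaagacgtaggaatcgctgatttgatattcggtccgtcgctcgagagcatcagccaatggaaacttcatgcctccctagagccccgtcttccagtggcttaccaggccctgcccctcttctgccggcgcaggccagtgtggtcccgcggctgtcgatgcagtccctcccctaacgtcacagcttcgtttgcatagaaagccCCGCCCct
The GC box occurred once in Stx1a and in Slc17a6, at 2 places in Rab3a and at 3 in Camk2b, of which a pair overlap, and was not found in the Homer1 window. It is common, being present in 32.7% of 32851 promoter windows of the same length. Neither the cyclic AMP response element TGACGTCA, found in 1.55% of windows, nor the TATA box, searched as TATAAA and on the other strand as TTTATA and found in 12.4%, was present in any of the 5 windows on either strand. These matches describe the letters only.

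The synaptic genes differed most between the 2 tissues. Of the genes that passed in both tissues, 13 of 18 presynaptic and 9 of 12 postsynaptic genes were called between hippocampus and frontal cortex of wild-type mice, where 37.9% of 14214 probes that passed in both were (38.1% of 15290 that passed in either). Of the presynaptic genes 4 were higher in hippocampus and 9 lower, with a median difference of -0.17 (hippocampus minus cortex); of the postsynaptic genes 5 were higher and 4 lower, with a median of 0.06, and the median over all probes was 0.00. Gria4 is left out of these counts, since it passed through the cortex alone. Stx1a, 2.61-fold lower in hippocampus, and Gria1, 2.54-fold higher, stood at the ends of the 2 lists.

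**Figure D1:**
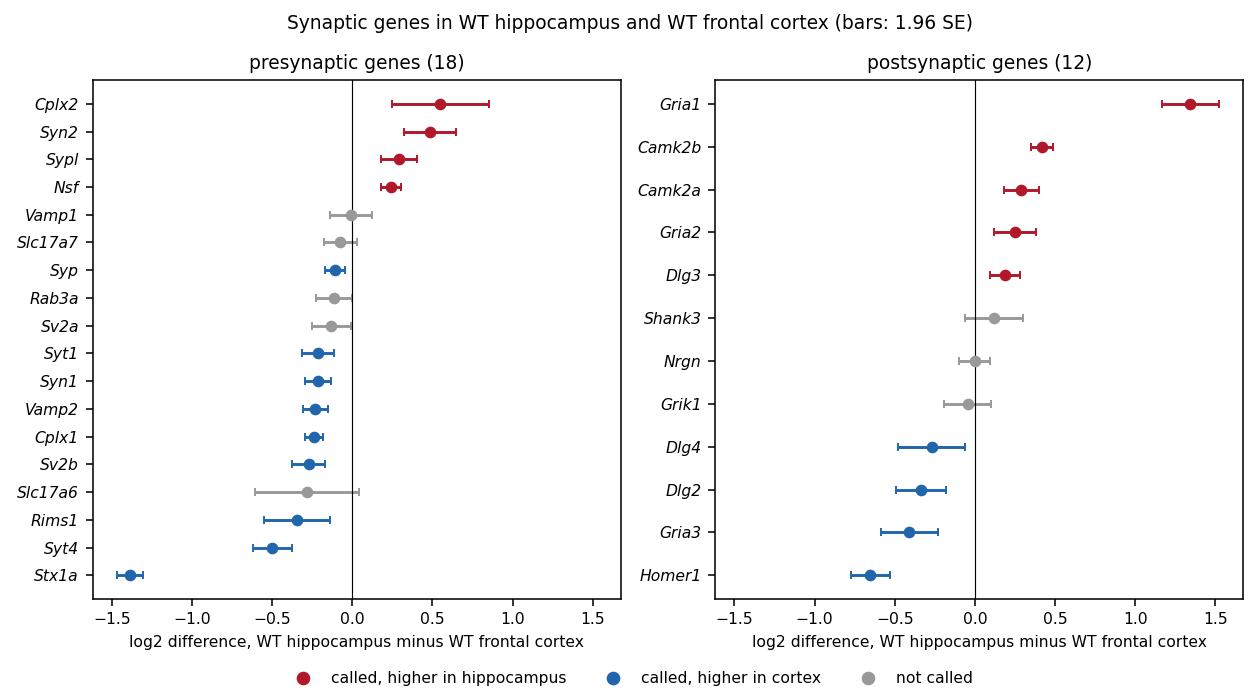
Difference of each synaptic gene that passed in both tissues between hippocampus and frontal cortex of wild-type mice, in log2 units with 95% intervals (n = 11 arrays a tissue), presynaptic and postsynaptic genes shown apart. Gria1 lies at 1.35 and Stx1a at -1.39, while the other genes lie between -0.65 and 0.55.

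Among the fusion proteins, Stx1a, the syntaxin that forms the plasma membrane end of the SNARE complex, read 11.58, 11.76 and 11.89 in hippocampus and 12.95, 13.11 and 13.28 in frontal cortex on the wild-type arrays. The tissues did not overlap, and over all 4 groups hippocampal arrays spanned 11.51 to 11.97 and cortical arrays 12.86 to 13.33. The difference was -1.39 (SE 0.0428, adjusted p = 1.59e-44), and Stx1a was lower in hippocampus in 39 of 39 mice with both tissues. Cplx1 and Cplx2, the complexins that clamp the assembled SNARE complex, differed in opposite directions. Cplx2 read 9.65, 9.98 and 10.79 in hippocampus and 8.78, 9.55 and 10.32 in frontal cortex, with overlapping tissues and a difference of 0.55 (SE 0.155, adjusted p = 0.00262). Cplx1 read 13.87, 14.01 and 14.11 in hippocampus and 14.13, 14.26 and 14.35 in frontal cortex, with no overlap among wild-type arrays and a difference of -0.24 (SE 0.0301, adjusted p = 1.76e-10). Nsf, the ATPase that takes spent SNARE complexes apart, was higher in hippocampus in 39 of 39 mice. Its levels were 13.51, 13.59 and 13.77 in hippocampus and 13.32, 13.38 and 13.47 in frontal cortex, which do not overlap, and its difference was 0.24 (SE 0.0322, adjusted p = 7.59e-10). Vamp2, the main vesicle SNARE of forebrain, was lower in hippocampus, with a difference of -0.23 (SE 0.0405, adjusted p = 1.77e-06), and Vamp1, its relative, was not called at -0.01, like its 3 other probes.

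Of the vesicle membrane proteins, the synapsins, which tether vesicles in the reserve pool, differed in opposite directions. Syn2 read 11.94, 12.29 and 12.56 in hippocampus and 11.50, 11.79 and 12.10 in frontal cortex, the tissues overlapping at their edges, with a difference of 0.48 (SE 0.0833, adjusted p = 1.06e-06). Syn1 was lower in hippocampus on both of its probes, at -0.21 and -0.26. Sypl, a relative of synaptophysin found beyond neurons, read 10.17, 10.50 and 10.66 in hippocampus and 9.87, 10.13 and 10.44 in frontal cortex, and its difference was 0.29 (SE 0.0576, adjusted p = 1.78e-05). A second Sypl probe did not show this, at 0.02 (adjusted p = 0.908). Synaptophysin itself, Syp, differed by -0.11, and the vesicle glycoprotein Sv2b by -0.27. Its relative Sv2a was not called on the brighter probe at -0.13 (adjusted p = 0.0897) and was called on the other at -0.16 (adjusted p = 0.0257). Neither vesicular glutamate transporter was called: Slc17a7 lay at -0.07 and Slc17a6 at -0.28, the latter with a wide SE of 0.165.

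The calcium sensors were lower in hippocampus. Syt4, a synaptotagmin of vesicles and secretory granules, read 10.92, 11.27 and 11.58 in hippocampus and 11.54, 11.80 and 11.92 in frontal cortex, and was lower in hippocampus in 39 of 39 mice although the ranges of the 2 tissues overlapped. Its difference was -0.50 (SE 0.062, adjusted p = 1.18e-10). Syt1, the sensor of fast release, differed by -0.21 (adjusted p = 0.000514). Rims1, an organiser of the active zone, read 6.04, 6.34 and 6.68 in hippocampus and 6.32, 6.75 and 7.03 in frontal cortex with a difference of -0.35 (SE 0.105, adjusted p = 0.00534); its other probe lay at -0.06 and was not called. Rab3a, the vesicle GTPase that binds Rims1 protein, was not called at -0.11 (adjusted p = 0.11).

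Behind the cleft, the AMPA receptor subunits split. Gria1 read 10.36, 10.76 and 11.01 in hippocampus and 8.88, 9.37 and 9.91 in frontal cortex, with no overlap, and was higher in hippocampus in 39 of 39 mice. Its difference was 1.35 (SE 0.0914, adjusted p = 1.53e-22), and its 3 probes ran from 1.28 to 1.35. Gria2, the subunit that makes the channel tight to calcium, was also higher, reading 12.14, 12.43 and 12.65 in hippocampus and 11.93, 12.15 and 12.53 in frontal cortex with a difference of 0.25 (SE 0.0671, adjusted p = 0.0014). Gria3 was lower on all 3 of its probes. The brightest of them read 6.98, 7.24 and 7.45 in hippocampus and 7.40, 7.67 and 7.86 in frontal cortex, and its difference was -0.41 (SE 0.0893, adjusted p = 0.000102). Gria4 averaged 4.66 ± 0.238 in hippocampus and 5.14 ± 0.434 in cortex (SD, n = 11). It was detected on 1 of the 11 wild-type hippocampal arrays and on 7 of the 11 cortical ones, so its hippocampal signal is a bound, and no difference or test between the tissues is given. Grik1, a kainate receptor subunit, was not called at -0.04.

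The scaffolds of the postsynaptic density were mostly lower in hippocampus. Homer1, which links group I metabotropic receptors to intracellular calcium stores, read 10.03, 10.34 and 10.44 in hippocampus and 10.74, 10.94 and 11.13 in frontal cortex, with no overlap among wild-type arrays, and was lower in 39 of 39 mice. Its difference was -0.65 (SE 0.0626, adjusted p = 4.99e-15), and its 2 other probes gave -0.64 and -0.42. Dlg2 read 7.42, 7.60 and 7.98 in hippocampus and 7.68, 8.11 and 8.30 in frontal cortex, with a difference of -0.33 (SE 0.0799, adjusted p = 0.000376). Of its relatives in the same family of receptor-anchoring proteins, Dlg4 differed by -0.27 and Dlg3, in the opposite direction, by 0.19. Shank3, a deeper scaffold, was near background (detected on 17 of 39 and 9 of 40 arrays) and was not called. Both kinase subunits were higher in hippocampus. Camk2b read 13.91, 14.04 and 14.11 in hippocampus and 13.46, 13.59 and 13.76 in frontal cortex, without overlap, with a difference of 0.42 (SE 0.0339, adjusted p = 1.75e-18) and 39 of 39 mice higher. Camk2a read 12.69, 12.92 and 12.99 in hippocampus and 12.34, 12.61 and 12.84 in frontal cortex, with a difference of 0.29 (SE 0.0554, adjusted p = 9.12e-06); of its other probes 1 gave 0.32 and 1 gave 0.04, the latter not called. Nrgn, which binds calmodulin in spines, read 12.50, 12.76 and 12.92 in hippocampus and 12.56, 12.77 and 12.84 in frontal cortex and differed by 0.00.

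**Figure D2:**
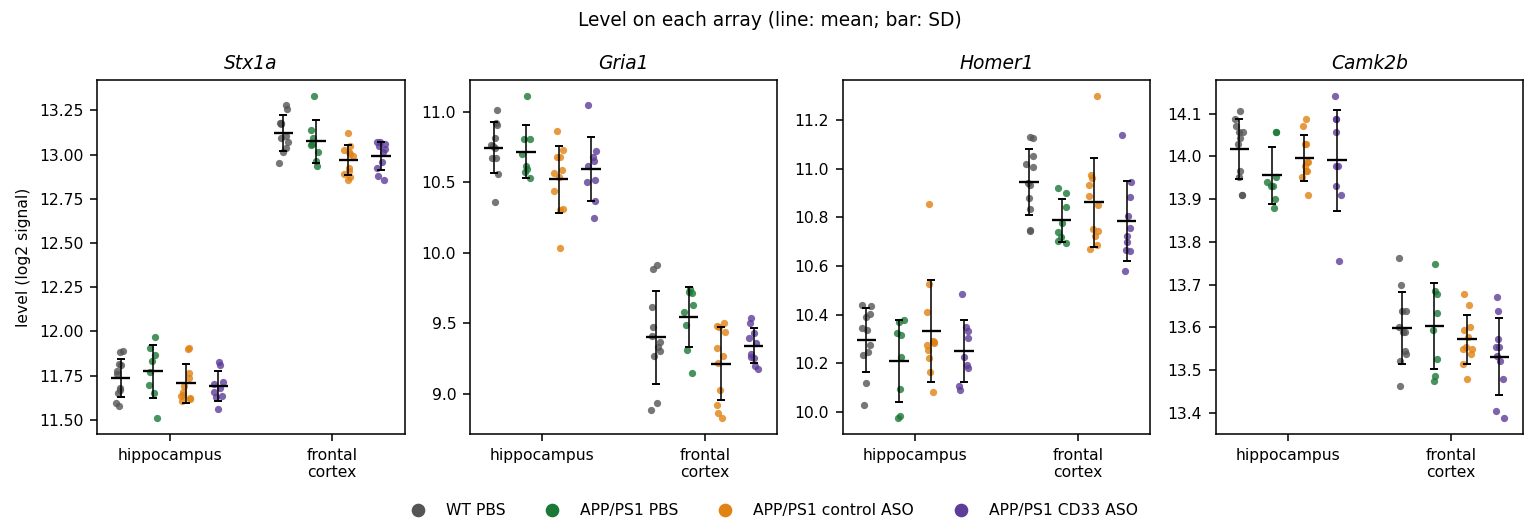
Log2 level of Stx1a, Gria1, Homer1 and Camk2b on every array, by tissue and group, each point 1 array, each line the group's mean and each bar its SD. Stx1a and Gria1 show no overlap between the tissues over all 79 arrays.

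Genes of the same synaptic compartments that are not among the 42 also split in both directions. Of 46 further presynaptic genes 32 were measured in both tissues, 9 of them higher and 17 lower in hippocampus, including Doc2b at 2.02 and Dnm1 at 0.55, against Doc2a at -1.63, Rims3 at -1.53 and Gap43 at -1.16. Doc2a and Doc2b are calcium-binding proteins of vesicle release, and Dnm1 pinches vesicles off the membrane. Of 44 further postsynaptic genes 31 were measured in both, 9 of them higher and 14 lower, including the AMPA receptor partners Cnih2 at 0.93 and Cacng8 at 0.73, against Cacng3 at -1.20 and Camk2d at -1.39. Counting here and below genes that passed in both tissues, 5 of 6 markers of hippocampal fields were higher in hippocampus (median 3.05). Of 6 cortical layer genes 4 were lower and 1 higher (median -0.70), and of 6 thalamic and habenular genes 3 were lower and 1 higher (median -0.39). All 6 striatal markers were lower in hippocampus (median -1.93), as were 5 of 6 markers of inhibitory neurons and 3 of 9 pan-neuronal genes, and 7 of 7 oligodendrocyte genes were higher (median 0.30), as were 3 of 9 astrocyte genes. Some genes are counted in more than 1 of these lists. Tac1, lower in hippocampus, is in both the thalamic and the striatal list. Slc32a1 is in both the further presynaptic and the inhibitory neuron list. The part of these cell types in the synaptic differences was not tested.

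The 2 other scalings of the arrays moved these differences upwards, except Shank3 under median centring. With each tissue normalized alone the median over all probes was 0.095, against 0.01, and presynaptic calls became 4 higher and 6 lower (median -0.04) and postsynaptic calls 6 higher and 3 lower (median 0.12). Syp, at 0.01, Rab3a, Slc17a7, Grik1, Vamp1 and Nrgn turned positive under that scaling, and Nrgn was called at 0.12. Syn1 (-0.08), Syt1 (-0.09) and Dlg4 (-0.15) were no longer called. Median centring gave 4 higher and 7 lower presynaptic calls (median -0.11) and 5 higher and 3 lower postsynaptic calls (median 0.07). Stx1a lay between -1.39 and -1.26 and Gria1 between 1.35 and 1.50 under these scalings.

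The first within-tissue question is whether the APP/PS1 genotype changed synaptic transcripts. In hippocampus no synaptic gene was called between APP/PS1 PBS and wild-type PBS mice, by limma without or with the slide in the model (0 of 18 presynaptic and 0 of 12 postsynaptic genes), where 0.952% and 0.945% of probes were called. At an unadjusted p under 0.05 there were 1 presynaptic and 0 postsynaptic genes. Presynaptic differences (APP/PS1 minus wild-type) ran from -0.13 to 0.30 with a median of -0.02 and postsynaptic ones from -0.17 to 0.02 with a median of -0.06, beside -0.01 over all probes. Under median centring the medians were -0.10 and -0.12, beside -0.04. The highest difference, Slc17a6 at 0.30, had an SE of 0.245. Leaving Slc17a6 aside, the 95% interval of a presynaptic gene that reached furthest from 0 ended 0.41 away (Cplx2), and that of a postsynaptic gene 0.34 (Gria3).

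The smallest p among presynaptic genes belonged to Syp and Slc17a7. Syp lay at 14.07, 14.22 and 14.35 with PBS in wild-type mice, at 14.11, 14.15 and 14.26 with PBS in APP/PS1 mice, at 14.11, 14.30 and 14.40 with the control ASO and at 14.14, 14.17 and 14.33 with the CD33 ASO. The APP/PS1 PBS arrays lay inside the wild-type range, with a difference of -0.08 (SE 0.0364, adjusted p = 0.534). Slc17a7 lay at 12.61, 12.74 and 12.88 with PBS in wild-type mice, at 12.47, 12.68 and 12.81 with PBS in APP/PS1 mice, at 12.55, 12.82 and 13.001 with the control ASO and at 12.66, 12.74 and 12.87 with the CD33 ASO. Wild-type and APP/PS1 PBS arrays overlapped over most of their ranges, and the difference was -0.08 (SE 0.0487, adjusted p = 0.69). Gria3 and Nrgn had the smallest p among postsynaptic genes. Gria3 lay at 6.98, 7.24 and 7.45 with PBS in wild-type mice, at 6.79, 7.01 and 7.45 with PBS in APP/PS1 mice, at 6.47, 6.93 and 7.20 with the control ASO and at 6.76, 6.84 and 7.32 with the CD33 ASO. The APP/PS1 PBS arrays overlapped the wild-type arrays up to their top, and the difference was -0.17 (SE 0.0891, adjusted p = 0.63). Nrgn lay at 12.50, 12.76 and 12.92 with PBS in wild-type mice, at 12.54, 12.63 and 12.69 with PBS in APP/PS1 mice, at 12.46, 12.67 and 13.08 with the control ASO and at 12.48, 12.71 and 12.78 with the CD33 ASO. The 8 APP/PS1 PBS arrays lay inside the wild-type range, with a difference of -0.11 (SE 0.0583, adjusted p = 0.645).

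Over the same arrays 7 of 11 microglial genes were higher in APP/PS1 hippocampus (median 0.78), their mean level running from 7.46 to 7.71 on wild-type and from 8.17 to 8.92 on APP/PS1 PBS arrays, and Gfap was the 1 of 9 astrocyte genes called, at 1.05 (adjusted p = 1.5e-05). None of 9 pan-neuronal genes was called (median 0.06, mean level 9.83 to 10.24 and 10.03 to 10.27), and none of 32 further presynaptic, 31 further postsynaptic, 6 inhibitory neuron, 7 oligodendrocyte, 7 endothelial and mural or 6 thalamic genes was. Without the mice of low Thy1 the counts of synaptic genes stayed at 0, but none of those mice is in either group compared here.

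In frontal cortex 1 of 18 presynaptic genes and 0 of 13 postsynaptic genes were called, beside 4.18% of probes, and the same numbers with the slide in the model, beside 4.75%. The called gene was Slc17a6, a vesicular glutamate transporter, whose transcript was lower in APP/PS1 mice. Slc17a6 lay at 9.68, 9.98 and 10.11 with PBS in wild-type mice, at 9.35, 9.69 and 10.00 with PBS in APP/PS1 mice, at 9.53, 9.71 and 9.93 with the control ASO and at 9.60, 9.74 and 9.98 with the CD33 ASO. The 2 PBS groups overlapped, but 4 of 8 APP/PS1 PBS arrays lay below the lowest wild-type array. The difference was -0.28 (SE 0.0746, adjusted p = 0.0163), or -0.28 (adjusted p = 0.0201) with the slide in the model, and within each of the 5 slides APP/PS1 PBS arrays averaged lower, with differences from -0.40 to -0.07. The call rested on few arrays: without APP/PS1 PBS replicate 6 it was -0.24 (adjusted p = 0.0772), without replicate 4 of that group -0.24 (adjusted p = 0.0564), and with median centring -0.31 (adjusted p = 0.106). Without the mice of low Thy1, which are in neither PBS group, only the estimated spread changed, and the adjusted p was 0.0126.

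**Figure D3:**
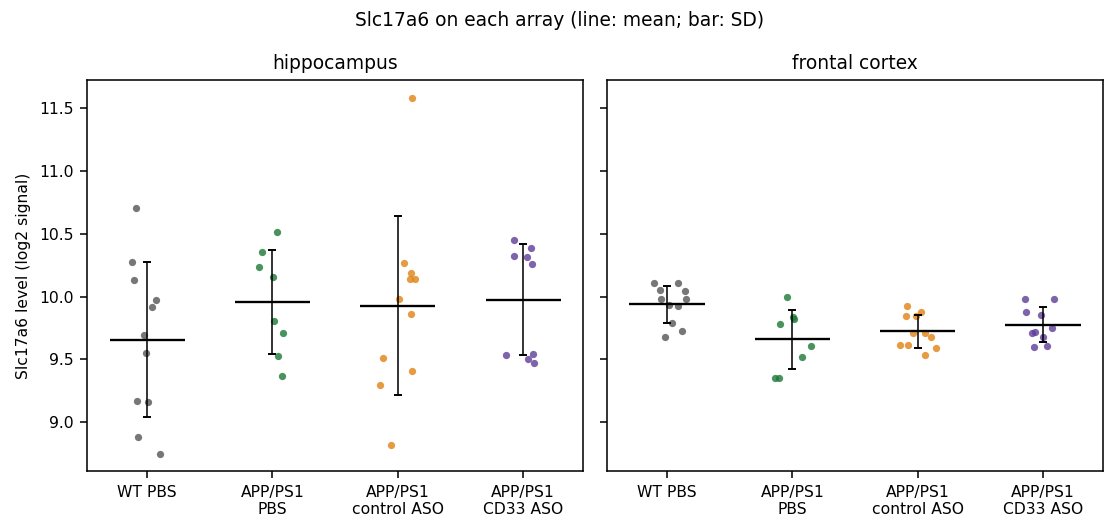
Log2 level of Slc17a6 on every array, by tissue and group, each point 1 array, each line the group's mean and each bar its SD. In hippocampus the arrays spread from 8.75 to 11.58 with overlap of all groups; in frontal cortex they spread from 9.35 to 10.11, and the 4 lowest APP/PS1 PBS arrays lie under all wild-type arrays.

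Most of the other differences in cortex were small and negative. Presynaptic genes had 15 of 18 negative differences, from -0.28 to 0.22 with a median of -0.08, and postsynaptic genes 9 of 13, from -0.24 to 0.14 with a median of -0.06, where the median of all probes was -0.03. Under median centring the medians were -0.12 and -0.11, beside -0.04. Nsf had the second smallest p. Nsf lay at 13.32, 13.38 and 13.47 with PBS in wild-type mice, at 13.16, 13.26 and 13.40 with PBS in APP/PS1 mice, at 13.20, 13.31 and 13.47 with the control ASO and at 13.09, 13.26 and 13.40 with the CD33 ASO. The medians of all 3 APP/PS1 groups lay below the lowest wild-type array, while the ranges overlapped. The genotype difference was -0.11 (SE 0.036, adjusted p = 0.0631). It was called, at an adjusted p of 0.0125, with array weights. It was also called (adjusted p = 0.0237) without the mice of low Thy1. Those mice are in neither group compared, so only the spread estimated over the 4 groups changed.

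Grik1 and Homer1 had the smallest p among postsynaptic genes in cortex. Grik1 lay at 7.31, 7.49 and 7.74 with PBS in wild-type mice, at 7.10, 7.26 and 7.49 with PBS in APP/PS1 mice, at 6.88, 7.18 and 7.46 with the control ASO and at 6.83, 7.14 and 7.47 with the CD33 ASO. The median of the APP/PS1 PBS arrays lay below the lowest wild-type array, and each of 5 slides gave a lower mean in APP/PS1 mice. The difference was -0.24 (SE 0.0828, adjusted p = 0.11), and -0.26 (adjusted p = 0.0388) with array weights. Homer1 lay at 10.74, 10.94 and 11.13 with PBS in wild-type mice, at 10.70, 10.76 and 10.92 with PBS in APP/PS1 mice, at 10.67, 10.85 and 11.30 with the control ASO and at 10.58, 10.74 and 11.14 with the CD33 ASO. These ranges overlapped, with a difference of -0.16 (SE 0.0679, adjusted p = 0.227). None of the 32 further presynaptic or 31 further postsynaptic genes was called (medians -0.06 and -0.04). With the slide in the model Syt13 was, at -0.31 (adjusted p = 0.0299), and the metabotropic receptor Grm8, at -0.38 (adjusted p = 0.0342).

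All 11 microglial genes were higher in APP/PS1 cortex (median 1.37, mean level 7.59 to 7.80 on wild-type and 9.10 to 9.69 on APP/PS1 PBS arrays), as was Gfap among 9 astrocyte genes at 2.26 (adjusted p = 2.49e-12). None of 9 pan-neuronal genes (median -0.03) or of 6 inhibitory neuron genes (median -0.20) was called. Of 7 thalamic genes Prkcd was higher (median of the list -0.06), and of 6 hippocampal field genes Wfs1 was. Of 6 striatal genes 0 were called, with 5 positive differences, 1 negative and a median of 0.22. Tac1 is in both the striatal and the thalamic list. The part of these lists in the difference of Slc17a6 was not tested.

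Slc17a6 varied more than any other presynaptic gene in hippocampus, with a within-group SD of 0.578 where the median presynaptic gene had 0.131. Slc17a6 lay at 8.75, 9.70 and 10.70 with PBS in wild-type mice, at 9.37, 9.98 and 10.51 with PBS in APP/PS1 mice, at 8.81, 9.98 and 11.58 with the control ASO and at 9.47, 10.26 and 10.45 with the CD33 ASO. All groups overlapped, and the highest array, control ASO replicate 6, read 11.58 where the next of its group read 10.27. That array also had the highest mean of 6 thalamic and habenular genes of all hippocampal arrays, 9.10, where the next read 8.62. Across the 39 hippocampal arrays, as deviations from group means, Slc17a6 and that mean correlated with Pearson's r = 0.475 (permutation p = 0.00316, adjusted p = 0.00527 over 5 relations, 2 of them with the olfactory genes named next) and Spearman's rho = 0.322 (adjusted p = 0.0732), but r was 0.211 without the 2 arrays farthest from the median of the list and ran from -0.404 to 0.792 within slides, so the relation rested on those arrays. With the mean of 6 genes of hippocampal fields r was -0.154 (permutation p = 0.347, adjusted p = 0.347) and rho -0.177 (adjusted p = 0.279). In cortex the thalamic list gave r = 0.367 (permutation p = 0.0185, adjusted p = 0.0231) and rho = 0.300 (adjusted p = 0.0732), and r = 0.148 without the 2 farthest arrays. The adjustment took in the 2 olfactory relations, whose list was chosen after the data had been seen. Their small p lowered the adjusted p of the thalamic relations, which are therefore too small, and no call is drawn from them. Tac1, in the thalamic list, is also in the striatal list.

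A list of 14 olfactory bulb genes was taken after the cortical data had been seen and is therefore given without a p. Because of that choice its relation to Slc17a6 cannot be compared with that of the thalamic list. Of the 14 genes 11 were measured, and over 40 cortical arrays their mean and Slc17a6 correlated with r = 0.644 and rho = 0.615, with r = 0.595 without the 2 farthest arrays and from 0.465 to 0.930 within the 5 slides. The mean of the list ran from 6.18 to 7.92 (median 7.46) on wild-type arrays and from 6.09 to 7.75 (median 6.81) on APP/PS1 PBS arrays. Medians were 7.28 with the control ASO and 7.51 with the CD33 ASO. All 11 genes had a negative genotype difference (median -0.45) and 0 were called. With the list's mean as a covariate the genotype difference of Slc17a6 was -0.21, also given without a p. Since the list was chosen after these arrays had been seen, no conclusion is drawn from this value. The part of the place of the cut in the difference was not tested.

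The control ASO carries no target, and its comparison with PBS asks what infusion of an oligonucleotide alone did. In APP/PS1 hippocampus 4 of 18 presynaptic genes and 0 of 12 postsynaptic genes were called, beside 11.4% of probes. With the slide in the model 0 of 30 were, beside 0.811%. Rab3a was lower and Syt4, Slc17a7 and Syp higher with the control ASO. Presynaptic differences (control ASO minus PBS) ran from -0.26 to 0.24 with a median of -0.02, and postsynaptic ones from -0.20 to 0.20 with a median of 0.09. The median of all probes was 0.01. Under median centring both medians moved, to 0.11 and 0.22, and that of all probes to 0.06, so the sign of the presynaptic median depended on the scaling. With the slide they were -0.05 and 0.03.

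Rab3a, the GTPase that marks release-ready vesicles, changed most. Rab3a lay at 12.57, 12.93 and 13.09 with PBS in wild-type mice, at 12.78, 12.92 and 13.07 with PBS in APP/PS1 mice, at 12.53, 12.65 and 12.85 with the control ASO and at 12.85, 12.93 and 13.14 with the CD33 ASO. The control ASO arrays were low, 10 of 11 of them below the lowest APP/PS1 PBS array and the lowest CD33 ASO array, while the APP/PS1 PBS and CD33 ASO arrays shared 1 range and wild-type arrays reached down to 12.57. The difference from PBS was -0.26 (SE 0.0516, adjusted p = 0.00127). These arrays also shared slides: 9 of 11 control ASO arrays lay on slides 1 and 4, and 7 of 8 APP/PS1 PBS arrays on slides 2, 3 and 5. Wild-type mice, which had no ASO, read 12.57 to 12.84 on slides 1 and 4 (4 arrays) and 12.83 to 13.09 on slides 3 and 5 (7 arrays). Control ASO arrays read 12.53 to 12.73 on slides 1 and 4 and 12.76 to 12.85 on slide 2 (2 arrays). CD33 ASO arrays read 12.85 and 12.89 on slides 1 and 4 (2 arrays) and 12.87 to 13.14 on slides 2, 3 and 5 (7 arrays). With the slide in the model the difference of the control ASO from PBS was -0.13 (adjusted p = 0.18). On the 2 slides that held both of these APP/PS1 groups it was -0.19 and -0.12. Rab3a differed between slides in both tissues (adjusted p = 0.00046 in hippocampus and 0.000547 in cortex).

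**Figure D4:**
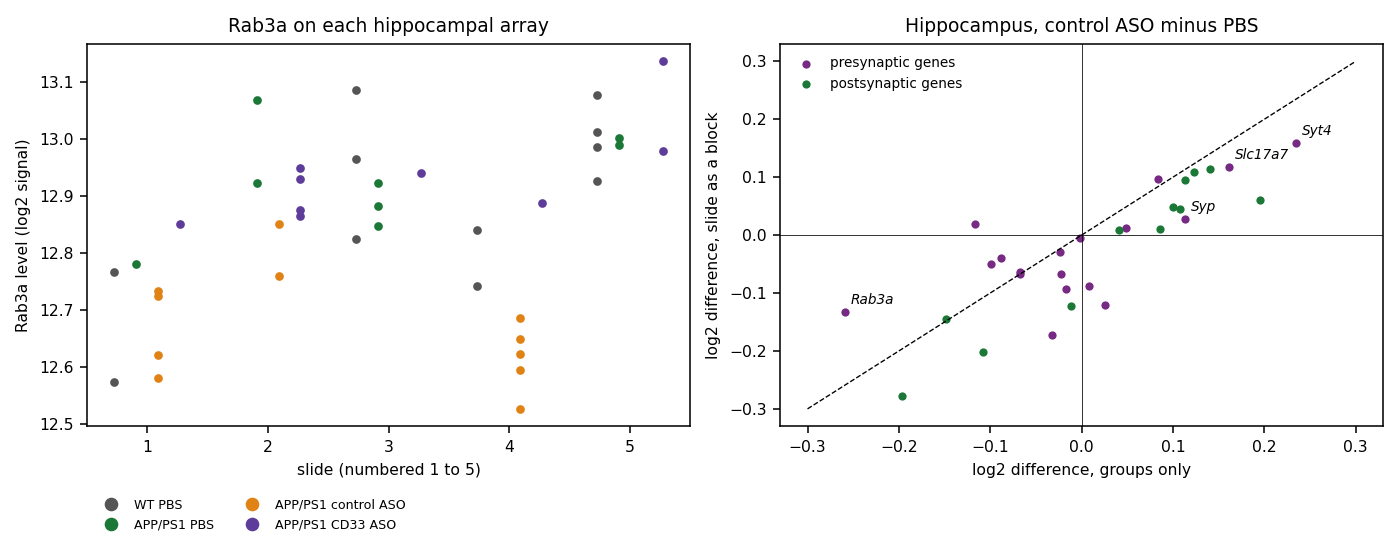
Left, log2 level of Rab3a on each hippocampal array by slide, coloured by group; right, difference between control ASO and PBS of each synaptic gene in hippocampus with the groups alone in the model and with the slide added. On slides 1 and 4 wild-type arrays read 12.57 to 12.84, control ASO arrays 12.53 to 12.73 and the 2 CD33 ASO arrays 12.85 and 12.89. Rab3a moves from -0.26 to -0.13 when the slide is added.

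Syt4, whose protein sits on vesicles and dense-core granules, was higher with the control ASO. Syt4 lay at 10.92, 11.27 and 11.58 with PBS in wild-type mice, at 11.07, 11.20 and 11.42 with PBS in APP/PS1 mice, at 11.23, 11.45 and 11.69 with the control ASO and at 10.99, 11.32 and 11.56 with the CD33 ASO. The ranges overlapped, with the control ASO median above the highest APP/PS1 PBS array. Its difference was 0.24 (SE 0.0691, adjusted p = 0.0233) and 0.16 (adjusted p = 0.436) with the slide. Slc17a7 and Syp, whose levels are given above, differed by 0.16 (SE 0.0487, adjusted p = 0.0269) and 0.11 (SE 0.0364, adjusted p = 0.0376). With the slide these were 0.12 (adjusted p = 0.371) and 0.03 (adjusted p = 0.812). Fewer of the 4 were called without single arrays. Of 19 fits that each left out 1 array, Syp lost its call in 12 (adjusted p up to 0.0752), Slc17a7 in 4 and Syt4 in 1. Rab3a kept its call in all 19. Without APP/PS1 PBS replicate 3 only Rab3a was called, and without APP/PS1 PBS replicate 6 or control ASO replicate 10 Rab3a and Syt4 were. Without the mice of low Thy1, Rab3a alone was called, and without mice taken on another day Rab3a and Syt4. Median centring called Syt4, Slc17a7 and Syp together with Nsf, and gave -0.11 (adjusted p = 0.225) for Rab3a.

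Postsynaptic genes with the smallest p were Gria1 and Nrgn. Gria1 lay at 10.36, 10.76 and 11.01 with PBS in wild-type mice, at 10.53, 10.66 and 11.11 with PBS in APP/PS1 mice, at 10.03, 10.57 and 10.86 with the control ASO and at 10.24, 10.61 and 11.05 with the CD33 ASO. The control ASO range reached lowest and overlapped all others. The difference from PBS was -0.20 (SE 0.0919, adjusted p = 0.156); a dimmer probe of Gria1 was called, at -0.36 (SE 0.106, adjusted p = 0.0223), as was a dimmer probe of Sypl, at -0.34 (SE 0.0867, adjusted p = 0.00902). Nrgn differed by 0.11 (SE 0.0583, adjusted p = 0.204), with control ASO arrays spanning all other groups. Under median centring Nrgn was called with Camk2a, Camk2b and Dlg3, all higher with the control ASO.

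Of the further presynaptic genes Doc2b was higher, at 0.37 (adjusted p = 0.00234), and Amph, at -0.19 (adjusted p = 0.0119), and the inhibitory vesicle transporter Slc32a1, at -0.20 (adjusted p = 0.0212), were lower, 3 of 32 in all. Of 31 further postsynaptic genes Kalrn (0.38) and Nlgn3 (0.33) were higher and Nlgn1 (-0.30), Pick1 (-0.20) and Camk2g (-0.18) lower. None of these was called with the slide in the model. In the same comparison 4 of 6 inhibitory neuron genes were lower, with Slc32a1 counted again, and the median was -0.23. The mean level of this list ran from 10.80 to 11.05 with PBS and from 10.52 to 11.02 with the control ASO. Of 9 pan-neuronal genes 2 were lower, Nefm and Nefh, as were 3 of 7 oligodendrocyte genes. Of 11 microglial genes 4 were higher (median 0.30), and of 6 genes of hippocampal fields Bok was lower. With the slide in the model only Opalin of the oligodendrocyte genes and C1qa of the microglial genes were still called. None of the inhibitory neuron, pan-neuronal or hippocampal field genes was. The part of these markers in the synaptic differences was not tested.

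The comparison of the CD33 ASO with the control ASO asks what loss of the Cd33 transcript adds. It shares its control ASO arrays with the comparison just described. In hippocampus 1 of 18 presynaptic genes and 0 of 12 postsynaptic genes were called, beside 3.53% of probes, and 0 with the slide in the model, beside 0.757%. The called gene was Rab3a, at 0.27 (SE 0.0499, adjusted p = 0.001) (CD33 ASO minus control ASO), which is the difference of the same low control ASO arrays. With the slide it was 0.16 (adjusted p = 0.0558), and under median centring 0.16 (adjusted p = 0.156). On the 3 slides with both groups it ran from 0.10 to 0.27. Presynaptic differences ran from -0.22 to 0.27 with a median of -0.04 and postsynaptic ones from -0.26 to 0.10 with a median of -0.06; all probes had -0.01. Under median centring the medians were -0.12 and -0.14, beside -0.04 over all probes, and with the slide -0.02 and -0.02.

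Syt4, the next presynaptic gene by p, differed by -0.17 (SE 0.0669, adjusted p = 0.14), with overlapping ranges. Among postsynaptic genes the smallest p belonged to Grik1 and Camk2a. Grik1 lay at 6.88, 7.56 and 7.74 with PBS in wild-type mice, at 7.30, 7.48 and 7.58 with PBS in APP/PS1 mice, at 7.11, 7.43 and 7.70 with the control ASO and at 6.90, 7.17 and 7.50 with the CD33 ASO. The CD33 ASO arrays lay in the lower part of the range of the others, with a median below the lowest APP/PS1 PBS array. The difference from the control ASO was -0.26 (SE 0.0878, adjusted p = 0.0906); without CD33 ASO replicate 1 it was -0.30 (adjusted p = 0.0406). Camk2a lay at 12.69, 12.92 and 12.99 with PBS in wild-type mice, at 12.78, 12.87 and 13.01 with PBS in APP/PS1 mice, at 12.69, 13.03 and 13.12 with the control ASO and at 12.70, 12.86 and 13.05 with the CD33 ASO. These ranges overlapped almost wholly, and the difference was -0.11 (SE 0.0496, adjusted p = 0.227).

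Further synaptic genes were called, 5 of 32 presynaptic and 2 of 31 postsynaptic: Napa, a partner of Nsf, at 0.35 (adjusted p = 0.00608), Amph at 0.21 (adjusted p = 0.0105), the active zone gene Rims2 at -0.39 (adjusted p = 0.00211), Doc2b at -0.33 (adjusted p = 0.00797), Syt11 at -0.12, Kalrn at -0.42 (adjusted p = 0.0236) and Dlgap2 at -0.32 (adjusted p = 0.00779). With the slide in the model 0 of these 7 were called. Beside them 3 of 7 oligodendrocyte genes (median -0.25) and 3 of 7 endothelial and mural genes (median -0.13) were lower. Of 6 genes of hippocampal fields 2 were higher (median -0.06), as was 1 of 11 microglial genes, Tyrobp (median 0.28). Of 6 cortical layer genes 1, Cux2, was lower. Among 9 astrocyte, 6 striatal, 9 pan-neuronal, 6 inhibitory neuron and 6 thalamic genes 0 were called. With the slide in the model only Mog of the oligodendrocyte genes and Cux2 were called among these markers.

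**Figure D5:**
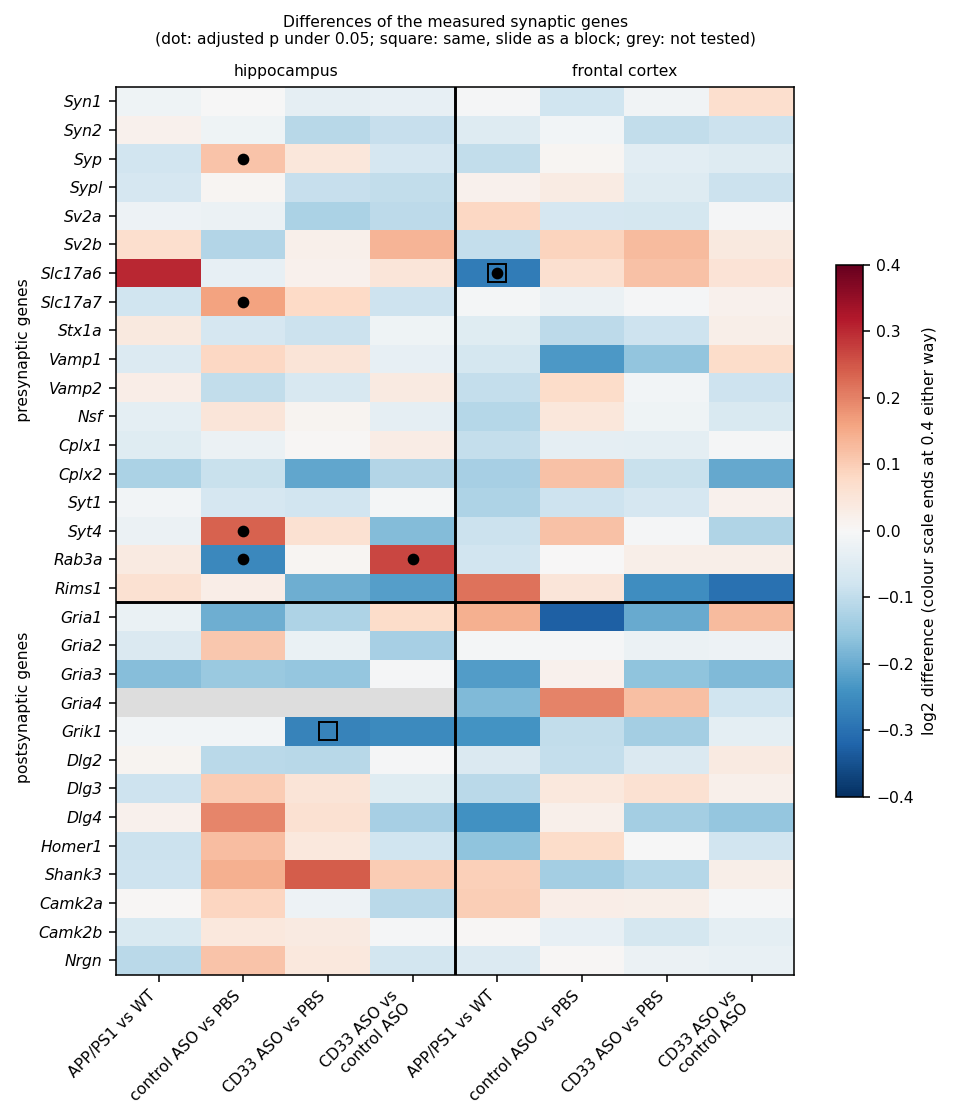
Differences of 31 synaptic genes in the 8 within-tissue comparisons, in log2 units; a dot marks a call with the groups alone in the model, a square a call with the slide added, and grey a gene not tested. Calls lie mostly in hippocampus with the control ASO, where none carries a square, and Slc17a6 in the cortical genotype comparison carries both marks.

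Against PBS, the CD33 ASO gave 0 of 18 presynaptic and 0 of 12 postsynaptic calls in hippocampus by limma, beside 4.96% of probes. At an unadjusted p under 0.05 there were 0 and 2. With the slide in the model Grik1 was called, 1 of 12, at -0.33 (adjusted p = 0.0224), beside 5.27% of probes; it was lower on 4 of 4 slides with both groups, from -0.37 to -0.02. Without the slide its difference was -0.27 (SE 0.095, adjusted p = 0.102), and without CD33 ASO replicate 1 it was -0.31 (adjusted p = 0.0467). Shank3 lay at 4.71, 4.96 and 5.32 with PBS in wild-type mice, at 4.68, 4.88 and 5.28 with PBS in APP/PS1 mice, at 4.79, 5.03 and 5.53 with the control ASO and at 4.88, 5.22 and 5.61 with the CD33 ASO. Shank3 was detected on 2 of 8 APP/PS1 PBS and 6 of 9 CD33 ASO arrays, so these overlapping values lie mostly near background and no difference is drawn from them. Presynaptic genes had differences from -0.21 to 0.08 and a median of -0.02, and postsynaptic genes from -0.27 to 0.24, the upper end being Shank3, and a median of 0.01, beside -0.01 over all probes. The signs of these medians depended on the setting: under median centring they were 0.04 and 0.05, beside 0.02, and with the slide -0.04 and -0.02.

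Sv2a, a vesicle glycoprotein, and Rims1 had the smallest p among presynaptic genes. Sv2a lay at 12.09, 12.29 and 12.59 with PBS in wild-type mice, at 12.09, 12.37 and 12.43 with PBS in APP/PS1 mice, at 12.02, 12.31 and 12.60 with the control ASO and at 12.06, 12.17 and 12.33 with the CD33 ASO. The CD33 ASO arrays overlapped those of every other group, with a difference of -0.13 (SE 0.0644, adjusted p = 0.325). Rims1 lay at 6.04, 6.34 and 6.68 with PBS in wild-type mice, at 6.03, 6.45 and 6.72 with PBS in APP/PS1 mice, at 6.14, 6.46 and 6.89 with the control ASO and at 5.54, 6.28 and 6.78 with the CD33 ASO. The groups overlapped widely, and the difference was -0.19 (SE 0.123, adjusted p = 0.466). Of the further genes Slc32a1 (-0.24) and Dlgap2 (-0.26) were lower, and with the slide Napa and Grm7 were called as well. Slc32a1 is counted again below among the inhibitory neuron genes. In the same comparison 6 of 7 oligodendrocyte genes were lower (median -0.36, mean level 11.34 to 11.85 with PBS and 10.89 to 11.36 with the CD33 ASO), 3 of 6 inhibitory neuron genes were lower (median -0.22), and 6 of 11 microglial genes higher (median 0.58), as were Gfap of the astrocyte and C1ql2 of the hippocampal field genes, while the cortical layer gene Cux2 was lower; 0 of 9 pan-neuronal genes were called (median -0.05). With the slide in the model Gfap and Cux2 were no longer called and Aldoc of the astrocyte genes was. The other marker counts stayed. The part of these markers in the Grik1 difference was not tested.

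In frontal cortex no synaptic gene was called in any of the 3 comparisons of the ASO groups, with or without the slide in the model. For the control ASO against PBS this was 0 of 18 and 0 of 13 genes, beside 0.926% of probes (0.871% with the slide), for the CD33 ASO against the control ASO 0 and 0 beside 0.322% (0.254%), and for the CD33 ASO against PBS 0 and 0 beside 1.49% (2.15%). At an unadjusted p under 0.05 the presynaptic counts were 2, 1 and 2 and the postsynaptic counts 1, 0 and 0. The medians were 0.01, 0.00 and -0.04 for presynaptic and 0.00, -0.03 and -0.06 for postsynaptic genes, where all probes had 0.00, 0.00 and 0.00. Under median centring they were 0.02, -0.06 and -0.07 and 0.02, -0.08 and -0.09, beside 0.02, -0.05 and -0.03. With the slide both medians of the control ASO against PBS turned negative, at -0.01 and -0.02. The 95% interval that reached furthest from 0 in the 3 comparisons ended 0.55 away, that of Cplx2 in the CD33 ASO against the control ASO.

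Gria1 had the largest difference with the control ASO in cortex. Gria1 lay at 8.88, 9.37 and 9.91 with PBS in wild-type mice, at 9.15, 9.60 and 9.74 with PBS in APP/PS1 mice, at 8.83, 9.27 and 9.50 with the control ASO and at 9.18, 9.32 and 9.53 with the CD33 ASO. The APP/PS1 PBS arrays were the highest by median and overlapped all others. The difference from PBS was -0.33 (SE 0.108, adjusted p = 0.167) with the control ASO and -0.20 (SE 0.111, adjusted p = 0.451) with the CD33 ASO; both share the PBS arrays. Vamp1, a vesicle SNARE, was next. Vamp1 lay at 8.69, 8.87 and 9.03 with PBS in wild-type mice, at 8.64, 8.78 and 8.96 with PBS in APP/PS1 mice, at 8.27, 8.63 and 8.87 with the control ASO and at 8.34, 8.60 and 8.98 with the CD33 ASO. The control ASO median lay just under the lowest APP/PS1 PBS array, and the difference was -0.23 (SE 0.0773, adjusted p = 0.182). Stx1a was at 12.95, 13.11 and 13.28 with PBS in wild-type mice, at 12.93, 13.06 and 13.33 with PBS in APP/PS1 mice, at 12.86, 12.99 and 13.12 with the control ASO and at 12.86, 13.02 and 13.07 with the CD33 ASO. Here the ranges overlapped in part, with a difference of -0.11 (SE 0.0452, adjusted p = 0.362). Shank3 stood at 4.55, 4.98 and 5.20 with PBS in wild-type mice, at 4.63, 5.04 and 5.40 with PBS in APP/PS1 mice, at 4.69, 4.80 and 5.14 with the control ASO and at 4.60, 4.87 and 5.20 with the CD33 ASO. Shank3 was detected on 3 of 8 APP/PS1 PBS and 2 of 11 control ASO arrays of cortex, and no difference is drawn from it.

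Between the CD33 ASO and the control ASO in cortex, Rims1 had the smallest p. Rims1 lay at 6.32, 6.75 and 7.03 with PBS in wild-type mice, at 6.64, 6.91 and 7.28 with PBS in APP/PS1 mice, at 6.60, 6.91 and 7.60 with the control ASO and at 6.10, 6.71 and 7.15 with the CD33 ASO. The CD33 ASO arrays reached lowest, and the ranges overlapped. The difference was -0.30 (SE 0.112, adjusted p = 0.343) from the control ASO and -0.25 (SE 0.121, adjusted p = 0.368) from PBS. Vamp2 lay at 13.02, 13.14 and 13.25 with PBS in wild-type mice, at 12.93, 13.06 and 13.17 with PBS in APP/PS1 mice, at 12.96, 13.15 and 13.26 with the control ASO and at 12.81, 13.08 and 13.21 with the CD33 ASO. Its groups overlapped, with a difference between the ASOs of -0.08 (SE 0.0448, adjusted p = 0.573). Gria3 and Dlg4 led the postsynaptic genes. Gria3 lay at 7.40, 7.67 and 7.86 with PBS in wild-type mice, at 7.02, 7.49 and 7.84 with PBS in APP/PS1 mice, at 7.06, 7.43 and 7.89 with the control ASO and at 6.87, 7.27 and 7.61 with the CD33 ASO. Dlg4 lay at 7.91, 8.07 and 8.61 with PBS in wild-type mice, at 7.60, 7.79 and 8.68 with PBS in APP/PS1 mice, at 7.57, 7.80 and 8.46 with the control ASO and at 7.46, 7.74 and 8.16 with the CD33 ASO. In both, the 3 APP/PS1 groups overlapped, and the differences between the ASOs were -0.18 (SE 0.103, adjusted p = 0.605) and -0.16 (SE 0.116, adjusted p = 0.713).

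Between the CD33 ASO and PBS in cortex, Sv2b and Camk2b completed the genes of smallest p. Sv2b lay at 12.14, 12.58 and 12.65 with PBS in wild-type mice, at 12.32, 12.46 and 12.50 with PBS in APP/PS1 mice, at 12.42, 12.49 and 12.70 with the control ASO and at 12.23, 12.60 and 12.74 with the CD33 ASO. The median with the CD33 ASO lay above the highest APP/PS1 PBS array, while its lowest array lay below all of them, and the difference was 0.13 (SE 0.0572, adjusted p = 0.324). Camk2b lay at 13.46, 13.59 and 13.76 with PBS in wild-type mice, at 13.47, 13.61 and 13.75 with PBS in APP/PS1 mice, at 13.48, 13.55 and 13.68 with the control ASO and at 13.39, 13.54 and 13.67 with the CD33 ASO. These spans overlapped, with a difference of -0.07 (SE 0.0404, adjusted p = 0.471). Among further synaptic genes Grm7, a metabotropic receptor counted here in the postsynaptic list, was lower with the CD33 ASO than with PBS, at -0.45 (adjusted p = 0.00649), and with the slide Slc17a8, Unc13c and Grik5 were called as well. In these comparisons 6 of 7 oligodendrocyte genes were lower with the CD33 ASO than with PBS (median -0.49), 3 of 7 with the control ASO than with PBS (median -0.15) and 1 of 7, Mog, with the CD33 ASO than with the control ASO. The endothelial gene Vwf was lower with the CD33 ASO in both of its comparisons, and Spink8, a gene of hippocampal fields, higher with the control ASO than with PBS. Striatal genes had medians of -0.52 and -0.58 against PBS with 0 of 6 called, and 0 of 11 microglial, 0 of 9 pan-neuronal and 0 of 6 inhibitory neuron genes were called in any of the 3. With the slide in the model, 2 of 7 oligodendrocyte genes were lower with the control ASO than with PBS. The other marker counts stayed. The part of these markers was not tested.

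Whether an effect differed between the tissues was tested over all 79 arrays with the mouse as a random block. No synaptic gene was called for the genotype effect, the CD33 ASO against the control ASO or the control ASO against PBS, beside 0.32%, 0.00654% and 0.203% of probes. For Slc17a6 the genotype effect in cortex minus that in hippocampus was -0.58 (SE 0.254, adjusted p = 0.49). For Rab3a the control ASO effect in cortex minus that in hippocampus was 0.26 (SE 0.0869, adjusted p = 0.146). Rab3a lay at 12.80, 12.98 and 13.24 with PBS in wild-type mice, at 12.76, 12.90 and 13.12 with PBS in APP/PS1 mice, at 12.67, 12.93 and 13.14 with the control ASO and at 12.46, 13.06 and 13.14 with the CD33 ASO. In cortex its control ASO arrays therefore overlapped all other groups, and the difference from PBS was 0.00 (SE 0.0709, adjusted p = 0.997).

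Ranges over all arrays of a tissue are given for single probes, whose signals say nothing of one gene against another. In hippocampus they were, among presynaptic genes, Syp (14.07 to 14.40), Cplx1 (13.81 to 14.11), Nsf (13.47 to 13.77), Rims1 (5.54 to 6.89), Vamp1 (8.53 to 9.29) and Slc17a6 (8.75 to 11.58), and among postsynaptic genes Camk2b (13.76 to 14.14), Camk2a (12.69 to 13.12), Nrgn (12.46 to 13.08), Shank3 (4.68 to 5.61), Gria3 (6.47 to 7.45) and Grik1 (6.88 to 7.74). In cortex the presynaptic ranges were Syp (14.07 to 14.44), Cplx1 (13.95 to 14.35), Syn1 (13.34 to 13.93), Rims1 (6.10 to 7.60), Vamp1 (8.27 to 9.03) and Cplx2 (8.65 to 10.36), and the postsynaptic ones Camk2b (13.39 to 13.76), Nrgn (12.46 to 13.02), Camk2a (12.34 to 12.99), Shank3 (4.55 to 5.40), Gria4 (4.51 to 5.94) and Grik1 (6.83 to 7.74). The within-group SD had a median of 0.131 (hippocampus) and 0.147 (cortex) over presynaptic genes and of 0.175 and 0.177 over postsynaptic genes. Camk2b and Cplx1 varied least of their lists in both tissues, with SDs of 0.0793 and 0.0728 in hippocampus and 0.0833 and 0.0712 in cortex, and Slc17a6 (0.578) and Dlg4 (0.251) in hippocampus and Cplx2 (0.445) and Gria4 (0.370) in cortex varied most.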

How the data were processed

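RNA of mouse hippocampus and frontal cortex was hybridised to bead arrays (Illumina MouseRef-8 v2). For each array the authors deposited a signal intensity for 25697 probes, not normalized between arrays and partly below 0, and, per the file headers, a detection p-value beside each intensity. The authors' table of log2 values holds 18960 probes with 1 median per tissue; it was used as an alternative. Software named in the submitters' processing notes was Partek, GenomeStudio and BeadStudio, and the annotation build is not given in the sources used here. Arrays have no counts, so their number limits the precision.

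Intensities were background-corrected with the detection p, an offset of 16 added, and quantile normalized over all arrays (neqc, limma 3.58.1, R 4.3.3). Probes were named from the platform annotation, updated through Entrez IDs against RefSeq. Within each tissue 4 groups were fitted together with lmFit and eBayes with an intensity trend, over 14923 hippocampal and 14581 cortical probes, and again with the slide as a fixed term. Comparisons between tissues used 15290 probes and the mouse as a random block (consensus correlation 0.0801). Correlations used 100000 permutations. The steps were tested on simulated data. Figures were drawn with matplotlib 3.10.9.

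The genes and the lists of further synaptic genes and of markers were chosen with earlier results of these data known. Group values are given for genes called within a tissue, for the 2 genes of smallest p in each list and comparison, for the 4 largest differences between tissues in each direction, and for the 3 highest and lowest probes as ranges; of further genes, those called, up to 4 a list and more where a count is spelled out. Alternatives changed the background correction, the scaling, the filter, the probe rule and the model terms (slide, surgery session, replicate number, array weights), or left out mice or single arrays. The alternatives without the mice of low Thy1 and with olfactory genes as a covariate, and the limit of the tissue counts to probes that passed in both tissues, were chosen after seeing the data. Replicate numbers did not pair the samples: of same-numbered pairs 22 of 53 in hippocampus and 22 of 55 in cortex had a correlation of deviations over 0.1.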

Additional observations from a re-analysis of the deposited data

Results flagged for a closer look

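In groups of 8 to 10 arrays, the highest or the lowest array stood further from its neighbour than Dixon's 95% limit allows in 13 of 122 sets of values, or 10.7%; chance flags about 1 in 20 groups. In hippocampus with PBS in APP/PS1 mice these were Syp on replicate 7 (14.26, high), Sv2b on replicate 1 (12.03, low), Gria1 on replicate 4 (11.11, high), Vamp1 on replicate 3 (8.57, low) and Dlg4 on replicate 2 (8.39, high). With the CD33 ASO in hippocampus they were Rab3a on replicate 9 (13.14, high), Sypl on replicate 6 (10.05, low), and Dlg2 (8.05) and Gria3 (7.32), both high on replicate 1. In frontal cortex they were Rab3a on CD33 ASO replicate 5 (12.46, low), and, with PBS in APP/PS1 mice, Gria2 on replicate 8 (11.73, low), Syt4 on replicate 6 (11.36, low) and Dlg4 on replicate 4 (8.68, high). The array of CD33 ASO replicate 1 in hippocampus is the one without which Grik1 was called. Cortical APP/PS1 PBS replicates 4 and 6 are those without which Slc17a6 was not called.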

How the results depend on the processing

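No result changed direction among called values, and of the counts of called synaptic genes 254 stayed within 1.5 times the reported count and 12 did not. Most reported counts were 0 and could move only by a new call, so the 254 say little of the counts above 0. With the slide in the model, presynaptic calls went from 1 to 0 for the CD33 ASO against the control ASO in hippocampus and from 4 to 0 for the control ASO against PBS, and postsynaptic calls for the CD33 ASO against PBS from 0 to 1. Median centring gave 0 presynaptic calls for the CD33 ASO against the control ASO in hippocampus and 0 for the cortical genotype, and 4 postsynaptic calls for the control ASO against PBS in hippocampus. In that last comparison the mean of all probes of a gene gave 1 postsynaptic call, leaving out mice taken on another day 2 presynaptic calls, and leaving out mice of low Thy1 1. For the cortical genotype, array weights gave 2 presynaptic and 1 postsynaptic calls, and leaving out mice of low Thy1 2 presynaptic calls. Those mice are in neither group of the genotype comparison. Without single arrays the ranges were 1 to 4 presynaptic calls for the control ASO against PBS in hippocampus, 0 to 1 postsynaptic for each CD33 ASO comparison there and 0 to 1 presynaptic for the cortical genotype. The causes were not tested. The replicate block gave 4 presynaptic calls for the control ASO against PBS in hippocampus (Rab3a, Slc17a7, Syt4 and Vamp2) and changed no other count; 7 of 39 and 5 of 40 arrays correlated best with their own number. Shank3 and hippocampal Gria4 lay near background, which limits what their probes can show.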
